A study of Mus musculus with 4 samples.

Results

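Intestinal organoid cells that carried high levels of the MCM replication helicase, little mitosis RNA and little of the stem cell receptor Lgr5 were examined in single-cell RNA libraries. They were chosen by their counts. Barcodes with at least 500 detected genes were kept. A member had a summed level of Mcm2, Mcm3, Mcm4, Mcm5, Mcm6 and Mcm7 of at least 600 CPM (UMIs, or counted RNA molecules, scaled to 1000000 UMIs of the barcode), a summed level of Mki67, Top2a, Cenpf, Ube2c, Birc5 and Cdk1 under 500 CPM, and fewer than 2 UMIs of Lgr5 and of the secretory fate factor Atoh1. Of 5429 kept barcodes, 277 were members (5.10%), with 46 in control 1, 20 in control 2, 106 in knockout 1 and 105 in knockout 2.

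The organoids came from crypts of 2 mice, 10 weeks old, that carried floxed alleles of both Cbl and Cblb and the R26Cre ERT2 allele, a Cre recombinase that is active once tamoxifen binds it. Cells of both groups carry these alleles. Replated organoids were grown for 3 days either with 4-hydroxytamoxifen at 400 nM, which deletes both genes (knockout, labelled iDKO), or without it (control). The drug itself and the deletion cannot be told apart in this design. There were 2 libraries in each group, compared over libraries, and p-values of knockout against control by the group alone measure the spread between these 4 libraries. Comparisons between sets of cells were made within libraries, and their p-values measure how far those differences vary from library to library. The labels number the libraries of each group 1 and 2 but do not tie a number to a mouse.

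Before a cell copies its DNA, origin proteins such as Cdc6 and Cdt1 load the ring of MCM subunits onto chromatin, and at the fork the ring unwinds DNA ahead of PCNA, the sliding clamp that holds the polymerases. Genes for these proteins are switched on together late in G1 by E2F transcription factors, once cyclins D and E have inactivated the retinoblastoma protein. In the intestine, Lgr5-bearing stem cells at the crypt base give rise to progenitors that replicate and divide several times while they move up the crypt and lose Lgr5. CBL and CBLB are ubiquitin ligases that mark activated receptor tyrosine kinases, EGFR among them, for degradation.

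The stretches shown here are promoters of 2 of the MCM genes that chose the members, because E2F motifs are known in this gene group. The motif was searched as TTTCCCGC, TTTCGCGC, TTTGCCGC or TTTGGCGC on both strands, over the 300 bases around each start (250 before and 50 after) in the RefSeq table of GRCm38.p6. The capitals mark the matches. Both stretches lie upstream of the annotated starts and are written 5′ to 3′ on the strand of the gene.
Mcm6, chr1:128359709-128359788, minus strand: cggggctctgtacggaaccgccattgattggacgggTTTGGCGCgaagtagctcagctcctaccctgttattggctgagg
Mcm5, chr8:75109324-75109403, plus strand: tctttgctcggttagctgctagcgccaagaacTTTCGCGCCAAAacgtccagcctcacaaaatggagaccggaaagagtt
In Mcm6 the match shown was the nearest of 3 before the start, 47 bases upstream, and in Mcm5 a pair of overlapping matches, 1 on each strand, makes up the capitals. Of the 5 MCM genes in the table, 4 held a match. The windows of Pcna, Ung, Rrm2 and Ccne1 held none. Among genes of the licensing list (proteins that load and fire origins) 7 of 16 did, and among fork genes 10 of 27. Among nucleotide supply genes 0 of 19 did, and among mitosis genes 0 of 38. A match was held by 704 of 27025 genes in all (2.60%). It was held by 411 of 8565 genes tested against cells with an MCM sum under 600 CPM (4.80%). Ribosome biogenesis genes held one in 3 of 20 and crypt base genes in 2 of 16. A match is a description of these letters only.

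**Figure D1:**
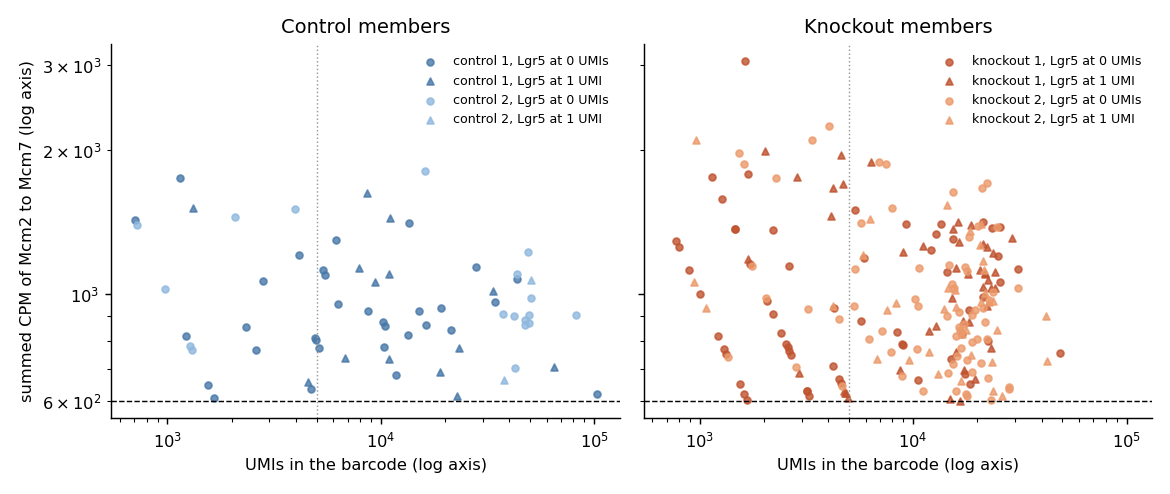
Each point is 1 member, with the UMIs of the barcode on the horizontal axis and the summed CPM of Mcm2 to Mcm7 on the vertical axis, both logarithmic. The left panel holds the controls and the right panel the knockouts, circles have 0 and triangles 1 UMI of Lgr5, the dashed line is the 600 CPM limit and the dotted line marks 5000 UMIs. The points under 5000 UMIs (81 of 277) lie on descending lines, where the sum steps with each MCM molecule.

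The members were not one depth. Their barcodes held 702 to 103101 UMIs, with medians of 9064.5 and 42365.5 in controls 1 and 2 and 8954.5 and 15900 in knockouts 1 and 2. Under 5000 UMIs lay 81 of 277 (29.2%), and 21 members met the MCM limit with 1 MCM molecule, as the plot of depth against MCM level shows. Just inside that limit, 46 members had 600 to 700 CPM, while 39 barcodes that met the other limits had 500 to 600. At the mitosis limit, 53 members had 400 to 500 CPM and 37 barcodes with 500 to 600 fell outside. Lgr5 was at 0 UMIs in 179 members and at 1 in 98, and 74 barcodes with 2 UMIs fell outside. No member barcode was shared between libraries, and removing the 67 highest doublet scores took out 1 member. The 4 libraries held 709 to 1983 barcodes and 22139560 to 35592468 UMIs.

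The label's markers were checked first. Mcm3 and Mcm6 are rule genes, and Pcna and Ung were given with the label, so all 4 are descriptions. Ung encodes the uracil-DNA glycosylase, which removes uracil built into new DNA. It had 80.9, 137, 106 and 113 CPM in the members of controls 1 and 2 and knockouts 1 and 2, which is 3.02, 7.36, 3.00 and 4.36 times the level in all other kept barcodes of the same library. Pcna had 146, 175, 127 and 100 CPM, or 1.88, 2.58, 1.47 and 1.45 times the rest. Both markers were above the rest in each library. Markers of cells from outside the epithelium were near 0: of 9 immune genes 8 were at 0 in the members and the list summed to at most 2.57 CPM, 7 of 8 mesenchymal and 5 of 5 erythroid genes were at 0, and endothelial genes, 3 of 6 at 0, summed to 4.57 to 10.3 CPM.

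The barcodes that miss 1 limit only served as 3 references: 446 dividing counterparts (mitosis sum of 500 CPM or more), 214 Lgr5-positive counterparts (2 or more Lgr5 UMIs) and 2001 MCM-low counterparts (MCM sum under 600 CPM). Since the rule drew each border in the counts of these same barcodes, genes that go with the rule genes had to differ across it. Counts of called genes across a border therefore describe its sides and support nothing, and the 14 rule genes are left out of all counts.

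**Figure D2:**
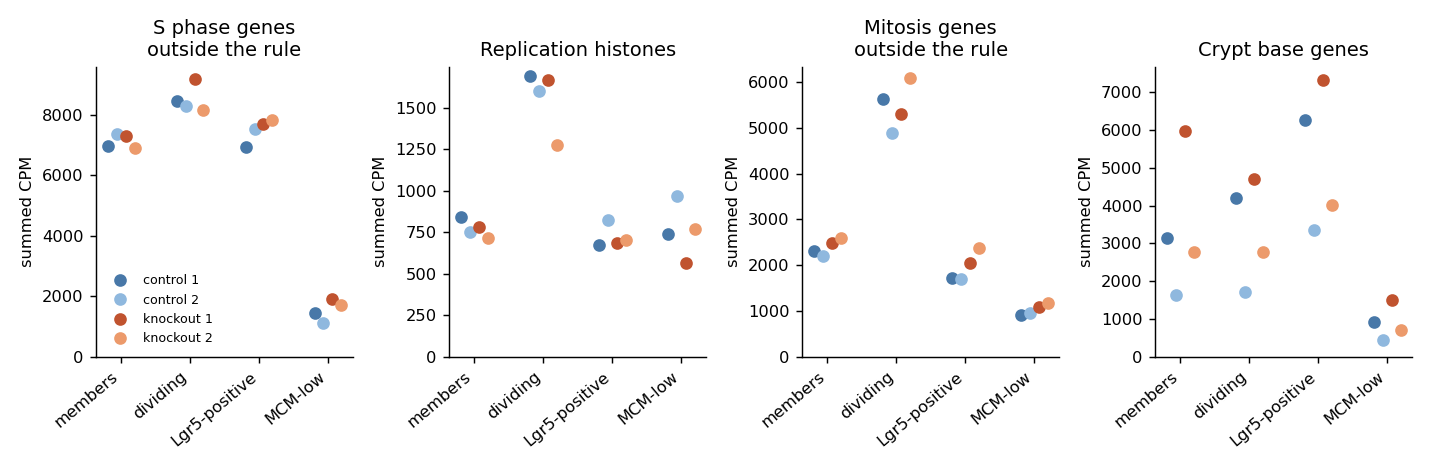
Each point is 1 library, and the vertical axis gives the summed CPM of a gene list over all cells of a class in that library, from 0. The classes are the members and the dividing, Lgr5-positive and MCM-low counterparts. In S phase genes outside the rule the members sit at 6913 to 7377 CPM and the MCM-low counterparts at 1116 to 1908 CPM. In the histone list (panel titled replication histones) the members lie below the dividing counterparts in each library and overlap the MCM-low counterparts.

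Against the MCM-low counterparts, the members carried several times more RNA of S phase genes outside the rule, but not of the histone list. The 92 S phase genes outside the rule (licensing, fork, nucleotide supply and repair) summed to 6975 and 7377 CPM in the members of controls 1 and 2 and to 7291 and 6913 CPM in knockouts 1 and 2. MCM-low cells had 1434, 1116, 1908 and 1711 CPM, so the ranges were far apart in every library. With every cell thinned to 8000 UMIs, which left out 105 shallower members, the median member held 55, 57, 59 and 55.5 molecules of these genes against 9, 6, 11 and 10 in MCM-low cells, and the lowest member held 22. Single MCM-low cells reached 66, so the 2 sets overlapped cell by cell. Shallow members carried less of the programme in 3 of 4 libraries: those under 5000 UMIs summed to 4733, 4550, 5136 and 7417 CPM and deeper ones to 7115, 7422, 7527 and 6900 CPM. Shallow MCM-low cells summed to 1075 to 1860 CPM.

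Across that border 6480 of 10848 genes (59.7%) were called by edgeR's quasi-likelihood test (adjusted p under 0.05 by the Benjamini-Hochberg method, library as a block), 2941 higher (27.1%) and 3539 lower (32.6%). Higher were 23 of 23 licensing, 32 of 32 fork, 20 of 20 nucleotide and 16 of 16 tested repair genes, among them Uhrf1, which carries DNA methylation over to new strands (log2 fold change 4.56 ± 0.30 SE), Hells, a chromatin remodeller (3.74 ± 0.24), and Rrm2, a subunit of ribonucleotide reductase (4.05 ± 0.22). Tipin (3.38 ± 0.18), Lig1 (3.36 ± 0.19), Pclaf (3.53 ± 0.26), Rpa2 (2.99 ± 0.16), Rfc3 (2.98 ± 0.17), Rrm1 (3.26 ± 0.25) and Cdt1 (3.12 ± 0.16), all with roles at origins, forks or in nucleotide supply, were higher too. The G1 to S regulators E2f1 (3.20 ± 0.30), Ccne1 (3.28 ± 0.29), Cdc6 (3.59 ± 0.23) and Ccnd1 (1.68 ± 0.15) were higher. The CDK inhibitors Cdkn1a (-2.24 ± 0.24) and Cdkn1c (-2.57 ± 0.20) were lower.

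The same border also separated immature from mature epithelium. Of 22 crypt base genes outside the rule 20 were higher, with Ascl2, a Wnt-driven stem cell factor, at 3.15 ± 0.20 and Olfm4, a secreted stem cell marker, at 3.07 ± 0.35. Axin2, a Wnt feedback gene, was at 1.91 ± 0.16, and Lrig1, an inhibitor of ErbB receptors, at 1.25 ± 0.16. All 26 tested ribosome biogenesis and polyamine genes were higher, with Gar1 at 2.32 ± 0.17 and Ncl at 1.98 ± 0.12. Lower were 25 of 25 enterocyte genes, 13 of 13 enteroendocrine, 12 of 13 goblet and 12 of 12 Paneth genes. Fabp1, the fatty acid carrier of enterocytes, had 11 UMIs in all members, and 3698, 470.2, 2217 and 582 CPM in MCM-low cells (-9.14 ± 0.29). The untargeted ligase gene Cblc was lower as well (-1.51 ± 0.15), with 27.5, 51.8, 33.5 and 30.8 CPM in members, as was the EGFR ligand gene Areg (-2.24 ± 0.32).

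Beside the dividing counterparts the members held more Ung RNA and less RNA of the histone list, cyclin A2 and ribonucleotide reductase. The histone list, which also holds Nasp and Hist1h2bc, summed to 842, 751, 783 and 716 CPM in the members. In the dividing cells it summed to 1691, 1602, 1668 and 1274 CPM, without overlap. S phase genes outside the rule were also below the dividing cells, at 8468, 8296, 9202 and 8163 CPM there. In this comparison 483 of 9008 genes were called (5.36%), 186 higher (2.06%) and 297 lower (3.30%). Without knockout 2, 35 were called higher and 195 lower.

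Of the tested licensing, fork, nucleotide and repair genes, Ung alone was called higher (1.11 ± 0.12), with 46.3, 44.9, 65.3 and 54.2 CPM in the dividing cells, below the members in each library. It kept its call and its direction under all 11 alternatives, at 0.96 to 1.23. Ung was given with the label, and the alternatives draw on the same libraries and rule genes, so this is a description. At 8000 UMIs per cell and pooled over libraries, 97 of 172 members (56.4%) held an Ung molecule. The pooled shares were 34.0% of dividing, 56.6% of Lgr5-positive and 5.53% of MCM-low cells. Without thinning the pooled shares were 58.1%, 41.5%, 82.7% and 7.20%. The thinned shares varied by library, at 36%, 78.6%, 54.4% and 60.5% of members in controls 1 and 2 and knockouts 1 and 2. Dividing cells were lower in each library, at 29.3%, 41.4%, 32.4% and 34.7%. In control 1 this was 9 of 25 members against 12 of 41 dividing cells. Lgr5-positive cells had 47.8%, 85.7%, 60.6% and 53.1%, above members in all but knockout 2. Pcna did not separate members from dividing cells, with 177, 157, 163 and 116 CPM in the latter and an adjusted p of 0.65. Cdc6, which loads the helicase, had 30.5, 35.0, 37.6 and 39.1 CPM in members and 25.3, 30.4, 38.4 and 22.5 CPM in dividing cells, and Ccne1 38.1, 41.1, 31.8 and 34.6 against 46.3, 52.2, 48.7 and 40.3 CPM. Neither was called.

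Lower in members were 16 of 20 tested histone genes, with Hist1h1b (-2.73 ± 0.13) and Hist1h2ap (-2.91 ± 0.17) in front. The histone gene Hist1h2bc went the other way (1.44 ± 0.13), at 83.9, 140, 80.3 and 66.7 CPM against 37.6, 58.0, 26.3 and 25.2 CPM. Rrm2 (-0.64 ± 0.12), Rrm1 (-0.74 ± 0.10), Tyms (-0.61 ± 0.08) and Tk1 (-0.93 ± 0.12), enzymes that make DNA precursors, were lower, as were 5 of 23 licensing genes, led by cyclin A2 (Ccna2, -1.50 ± 0.11) and Ticrr (-0.94 ± 0.28). Of 32 fork genes 11 were lower, Chtf18 (-1.39 ± 0.32) and Asf1b (-1.36 ± 0.15) most, and of 16 tested repair genes 5, Neil3 (-2.14 ± 0.28) most. E2f8 (-1.12 ± 0.22) and Mybl2 (-1.09 ± 0.19), both E2F-linked regulators, were lower. Of 46 mitosis genes outside the rule 41 were lower, across a border that mitosis genes drew, with Nusap1 at -4.22 ± 0.26, Aurkb at -3.59 ± 0.20, Hmmr at -3.37 ± 0.23 and Ccnb1 at -1.34 ± 0.15. No crypt base gene of 22 was called.

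Genes of secretory cells were higher in members than in dividing cells, and these counts came from few barcodes. Called higher were 10 of 13 goblet, 10 of 11 tested Paneth and 5 of 5 tested enteroendocrine genes, among them Ang4 (2.57 ± 0.26), Defa24 (2.22 ± 0.23) and Lyz1 (2.00 ± 0.44) of Paneth cells, and Tff3 (1.35 ± 0.24), Spdef (1.92 ± 0.31) and Muc2 (1.34 ± 0.29) of goblet cells. For the hormone gene Gcg (5.27 ± 0.34), 504 of 522 molecules lay in 1 barcode of knockout 2. In 21 of 277 members (7.58%) the 3 lists together made up at least 5% of the UMIs: 0 in control 1, 1 in control 2, 3 in knockout 1 and 17 in knockout 2 (16.2%). Among dividing cells 3.36% did. Without such barcodes, an alternative added after the values were seen, 7 of 10 tested goblet, 4 of 9 Paneth and 4 of 5 enteroendocrine genes were called higher and 0 lower.

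Beside the Lgr5-positive counterparts few genes differed: 29 of 8728 (0.332%), 26 higher (0.298%) and 3 lower (0.0344%), in 3 libraries, since control 2 had only 7 Lgr5-positive cells and was left out. The S phase sums of the counterparts were 6939, 7532, 7713 and 7837 CPM, overlapping the members' range, and none of the licensing, fork, nucleotide and repair genes was called. Lower in members were Olfm4 (-0.98 ± 0.15), Bex1 (-0.78 ± 0.13) and Sdc4, a heparan sulphate proteoglycan (-0.45 ± 0.09). Higher were the calcium-binding S100a6 (1.07 ± 0.09), the EGFR ligand amphiregulin (Areg, 2.15 ± 0.31), Anxa3 (1.46 ± 0.20), Lgals3 (1.60 ± 0.26), Fcgbp (1.21 ± 0.22), the transcription factor Atf5 (0.88 ± 0.17) and Nupr1 (0.85 ± 0.14). Gcg (4.37 ± 0.37) rested on the barcode named above.

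Depth differed across this border, with 5.61% of Lgr5-positive cells under 5000 UMIs against 29.2% of members, and its part in these differences was not tested. Also called higher were Gm42418 (1.12 ± 0.13), Gm26917 (1.60 ± 0.23), AY036118 (0.96 ± 0.13) and the mitochondrial leucyl-tRNA synthetase gene Lars2 (1.20 ± 0.16). After thinning to 8000 UMIs, with the classes drawn again, these 4 stood at 0.32, -0.19, 0.11 and 0.04. With barcodes of at least 5000 UMIs only, 5 genes stayed called higher and 0 lower, S100a6 and Anxa3 among the 5. Lars2 had 484, 146, 309 and 161 CPM in all members, and its difference was 0.60 among the deeper barcodes. S100a6 had 265, 1552, 221 and 882 CPM in members and 119, 714, 122 and 400 CPM in Lgr5-positive cells, higher in each library.

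Within the members, those with 1 Lgr5 molecule held more crypt base RNA than those with 0. The 22 genes summed to 3831, 3074, 7054 and 2974 CPM with 1 and to 2748, 1411, 4647 and 2657 CPM with 0, higher in each library, and Olfm4 alone had 1401, 1010, 4258 and 1134 CPM against 782, 17.6, 2343 and 949 CPM. Barcodes with 1 Lgr5 molecule were also deeper in each library, with median depths of 10880, 44080, 16058.5 and 16818 UMIs against 6235.5, 42365.5, 4241.5 and 15843, and control 2 had only 2 of them. The rule used Lgr5, so no test is given. The S phase sums of both sets overlapped, at 6837 to 7759 CPM with 1 and 6868 to 7318 CPM with 0.

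**Figure D3:**
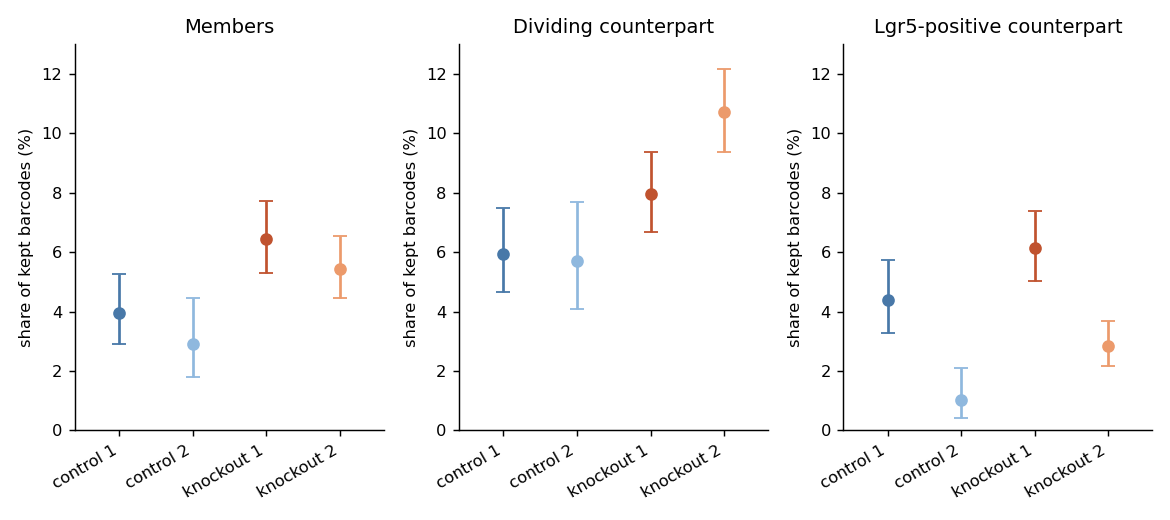
Points give the share of kept barcodes in each library that were members, dividing counterparts or Lgr5-positive counterparts, with exact 95% intervals that cover counting error only. Members made up 3.97% and 2.92% of the controls and 6.42% and 5.43% of the knockouts.

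The share of members was higher in both knockout libraries than in both controls. Members made up 3.97% (exact Clopper-Pearson 95% interval 2.92 to 5.25) of control 1 and 2.92% (1.79 to 4.47) of control 2, and 6.42% (5.29 to 7.72) of knockout 1 and 5.43% (4.46 to 6.54) of knockout 2. The groups did not overlap, and the means were 3.44% ± 0.743 and 5.93% ± 0.702 (SD, n = 2 each), a difference of 2.49 percentage points. A two-sided exact permutation test gave p = 0.3333, the smallest that 2 against 2 libraries allow. With Lgr5 at 0 UMIs required, it was 0.912 points, with shares of 2.76%, 2.62%, 3.64% and 3.57%, and with a mitosis limit of 300 CPM 1.42 points, so its size depended on where the limits were set. The dividing counterparts, at 5.95% and 5.69% of controls and 7.94% and 10.7% of knockouts, did not overlap between groups either.

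In the members the targeted genes were close to the counting limit. Cbl (ENSMUSG00000034342, GRCm38 chromosome 9, 44142976 to 44234049) had 13, 11, 5 and 13 UMIs in controls 1 and 2 and knockouts 1 and 2, or 19.8, 16.8, 4.18 and 8.34 CPM, lower in both knockouts but not called (adjusted p = 0.71 with the group alone). Cblb (ENSMUSG00000022637, chromosome 16, 52031225 to 52208048) had 6, 2, 6 and 0 UMIs, or 9.15, 3.05, 5.02 and 0 CPM, too few to be tested. Knockout 1 was below control 1 in CPM but not in UMIs, and it was above control 2. Summed over every barcode, Cbl had 17.0, 20.03, 12.3 and 10.4 CPM and Cblb 8.52, 3.93, 3.40 and 0.450 CPM. The deleted exons are not given in the sources used here, so these 3′ tags may lie outside them and are no check of the deletion. Cblc had 27.5, 51.8, 33.5 and 30.8 CPM in members and was not called.

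In the knockout members, Cdkn1a, Phlda3, Slc25a4, Creb3l1 and Igfbp4 had higher levels and Cth, Atf5, Mthfd2, Amn and Pycard lower levels than in both controls, but no gene passed the test over all members. With the group as the only term, 0 of 7416 genes (0%) had an adjusted p under 0.05 in edgeR's quasi-likelihood test, with 468 at an unadjusted p under 0.05 and a smallest adjusted p of 0.0878. Groups that do not overlap were common, at 34.6% of all genes tested (17.1% higher, 17.5% lower). DESeq2 called 5 genes, of which Cd24a and Cd81 are named here after their values were seen: the surface proteins Cd24a (0.99 ± 0.19 SE in edgeR) and Cd81 (0.98 ± 0.21) were higher, and Cth, Atf5 and Pycard lower. Cd24a had 145 and 190 CPM in the controls and 303 and 363 CPM in the knockouts, and Cd81 287 and 201 against 557 and 410 CPM. Without the 21 secretory-rich barcodes, 30 of 7414 genes (0.405%) passed with the group as the only term, 18 higher (0.243%) and 12 lower (0.162%). In what follows, rose and fell refer to that test, an alternative added after the values were seen, and folds are on the log2 scale, over all members unless said otherwise.

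**Figure D4:**
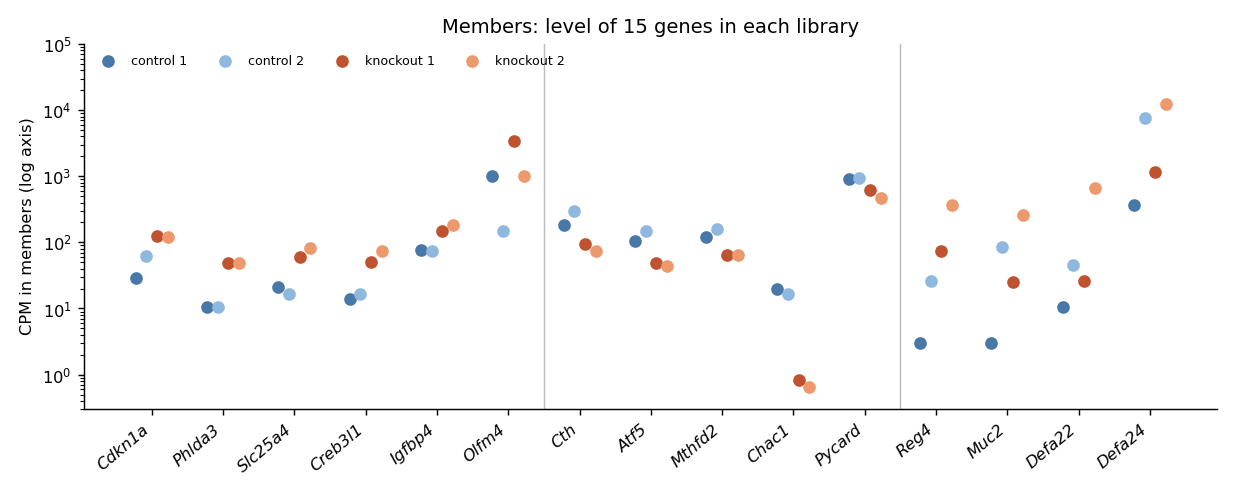
Each point is the CPM of a gene, on a logarithmic axis, in the members of 1 library. For the 11 genes left of the second line both knockouts lie on the same side of both controls (Olfm4 by a narrow margin, 1020 against 1004 CPM), while Muc2, Defa22 and Defa24 on the right overlap between groups.

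The p53 targets Cdkn1a and Phlda3 rose. Cdkn1a (ENSMUSG00000023067, chromosome 17, 29090976 to 29100727) encodes p21, an inhibitor of cyclin-dependent kinases, and had 29.0 and 62.5 CPM in the controls, and 124 and 121 CPM in the knockouts. The knockouts were above both controls in CPM. The fold of Cdkn1a was 1.42 ± 0.28 (edgeR adjusted p = 0.215), or 1.54 ± 0.26 (adjusted p = 0.00758) without the secretory-rich barcodes. The share of members holding a Cdkn1a molecule after thinning overlapped between groups. It was 8% and 57.1% in controls 1 and 2, and 28.1% and 51.3% in knockouts 1 and 2. Members with 0 and 1 Lgr5 UMIs had 221 and 45.3 CPM in knockout 1, and 120 and 123 CPM in knockout 2. Phlda3, which restrains AKT at the membrane, had 10.7 and 10.7 CPM in the controls, and 49.4 and 48.7 CPM in the knockouts (2.19 ± 0.33, adjusted p = 0.0878, and 2.23 ± 0.35, adjusted p = 0.00758). Of 16 tested p53 targets 0 passed over all members, 13 were above 0 and the median was 0.48. Without the secretory-rich barcodes these 2 rose, 0 fell and 14 were above 0. The whole list summed to 859 and 1022 CPM in the controls, and to 1242 and 1377 CPM in the knockouts.

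Slc25a4, the ADP/ATP carrier of the inner mitochondrial membrane, rose. It had 21.4 and 16.8 CPM in the controls, and 61.1 and 83.4 CPM in the knockouts (1.93 ± 0.30, adjusted p = 0.0878, and 1.95 ± 0.32, adjusted p = 0.00758 without the secretory-rich barcodes). Creb3l1, a transcription factor of the secretory pathway, rose from 13.7 and 16.8 to 51.0 and 73.1 CPM (2.03 ± 0.33, adjusted p = 0.0886, and 2.23 ± 0.40, adjusted p = 0.0107). Igfbp4, an IGF-binding protein of the crypt base list, rose from 77.8 and 74.7 to 149 and 181 CPM (1.12 ± 0.20, adjusted p = 0.154, and 1.24 ± 0.22, adjusted p = 0.0105). These sizes were smaller after thinning. Thinning each barcode to 8000 UMIs and applying the rule again gave 265 members. The folds were then 0.76 for Cdkn1a, 1.04 for Phlda3, 0.87 for Slc25a4, 0.72 for Creb3l1 and 0.66 for Igfbp4, and none passed.

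Cth, which makes cysteine from cystathionine, fell. It had 186 and 300 CPM in the controls, and 95.4 and 73.1 CPM in the knockouts, without overlap (-1.54 ± 0.24, adjusted p = 0.0878, and -1.51 ± 0.22, adjusted p = 0.00637 without the secretory-rich barcodes). Atf5, a transcription factor of the stress response, fell from 104 and 151 to 49.4 and 44.2 CPM (-1.45 ± 0.23, adjusted p = 0.0878, and -1.40 ± 0.24, adjusted p = 0.00758). Mthfd2, a mitochondrial folate enzyme, fell from 119 and 157 to 65.2 and 65.4 CPM (-1.08 ± 0.21, adjusted p = 0.204, and -1.19 ± 0.22, adjusted p = 0.0119). Chac1, which degrades glutathione, had 13 and 11 UMIs in controls and 1 and 1 in the larger knockout pools, a 25.2-fold lower rate (95% counting interval 6.26 to 220.0), and fell with an adjusted p of 0.00758. Amn, an endocytic coreceptor of absorptive cells (-1.33 ± 0.26), and the inflammasome adaptor Pycard (-0.78 ± 0.16) fell as well, both given without the secretory-rich barcodes. After thinning, over the 265 members drawn again, Cth was at -1.28, Atf5 at -1.05, Amn at -1.05, Pycard at -0.47 and Mthfd2 at -0.26, and none passed. On the amino acid response list, which holds Chac1 but not Cth or Atf5, 0 of 11 tested genes passed over all members and 10 were below 0, with a median of -0.59. Lgals3 (-1.28 ± 0.60), S100g (-1.20 ± 0.29), Mt2 (-0.72 ± 0.36) and Rpl27 (-0.65 ± 0.16) passed in neither of these tests.

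Of 20 tested crypt base genes 0 passed over all members, with a median of 0.12 and 15 above 0, and without the secretory-rich barcodes Igfbp4 alone passed. Olfm4 (ENSMUSG00000022026, chromosome 14, 79984081 to 80023139) had 1004, 151, 3404 and 1020 CPM in controls 1 and 2 and knockouts 1 and 2. Knockout 2 only just passed control 1, and the fold was 1.92 ± 0.67 (adjusted p = 0.722). In control 2 the 99 Olfm4 molecules lay in 3 of 20 members. Without the secretory-rich barcodes the fold of Olfm4 was 1.96 ± 0.46 (adjusted p = 0.0755), and after thinning it was 0.68. Clca3b had 265, 113, 491 and 223 CPM, Gkn3 5, 0, 49 and 27 UMIs and the ERK-responsive Phlda1 258, 114, 404 and 277 CPM, with no call. Ascl2 had 50.3, 117, 88.7 and 44.9 CPM, with overlapping groups and no call, and Lgr5 was used by the rule.

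The replication genes themselves were not called. Over all members 0 of 20 tested licensing, 31 fork, 20 nucleotide supply and 13 repair genes passed, and without the secretory-rich barcodes only Mthfd2 did. The medians over all members were -0.0038 for licensing, -0.10 for fork, 0.01 for nucleotide supply and 0.01 for repair genes. Pcna had 146 and 175 CPM in the controls, and 127 and 100 CPM in the knockouts, Ung 80.9 and 137 against 106 and 113 CPM, and Rrm2 70.2 and 89.9 against 73.6 and 102 CPM. Cdc6 had 30.5 and 35.0 against 37.6 and 39.1 CPM, Ccne1 38.1 and 41.1 against 31.8 and 34.6 CPM, Ccnd1 195 and 155 against 244 and 232 CPM, and Ccnb1 30.5 and 19.8 against 28.4 and 39.1 CPM. Pcna, Cdc6, Ccne1 and Ccnd1 did not overlap between groups, in either direction, and Ung, Rrm2 and Ccnb1 did overlap. Over all 7416 genes tested, 34.6% did not overlap, so this does not set these genes apart. Fabp1 had 5, 0, 2 and 4 UMIs and was not tested.

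Secretory transcripts differed widely between libraries, with the highest levels in knockout 2, which held 17 of the 21 secretory-rich barcodes. None of 12 goblet, 10 Paneth and 2 enteroendocrine genes tested passed over all members. Reg4 had 3.05, 25.9, 75.3 and 373 CPM (3.97 ± 0.80, adjusted p = 0.216), the mucin Muc2 3.05, 85.3, 25.1 and 261 CPM (1.73 ± 0.95, adjusted p = 0.839), and the mucin-folding Agr2 252, 491, 543 and 2223 CPM (1.91 ± 0.51, adjusted p = 0.463). The Paneth defensin Defa22 had 10.7, 45.7, 25.9 and 665 CPM, with 573 of 1105 molecules in 1 barcode, and Defa24 362, 7630, 1176 and 12576 CPM. Muc2, Defa22 and Defa24 overlapped between groups, and without knockout 2 all 3 lay below 0, at -0.83, -0.14 and -1.78. The Defa genes are near-identical copies, and how reads were split among them is uncertain. For the hormone gene Cck, 150 of 171 molecules lay in 1 barcode of knockout 2.

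**Figure D5:**
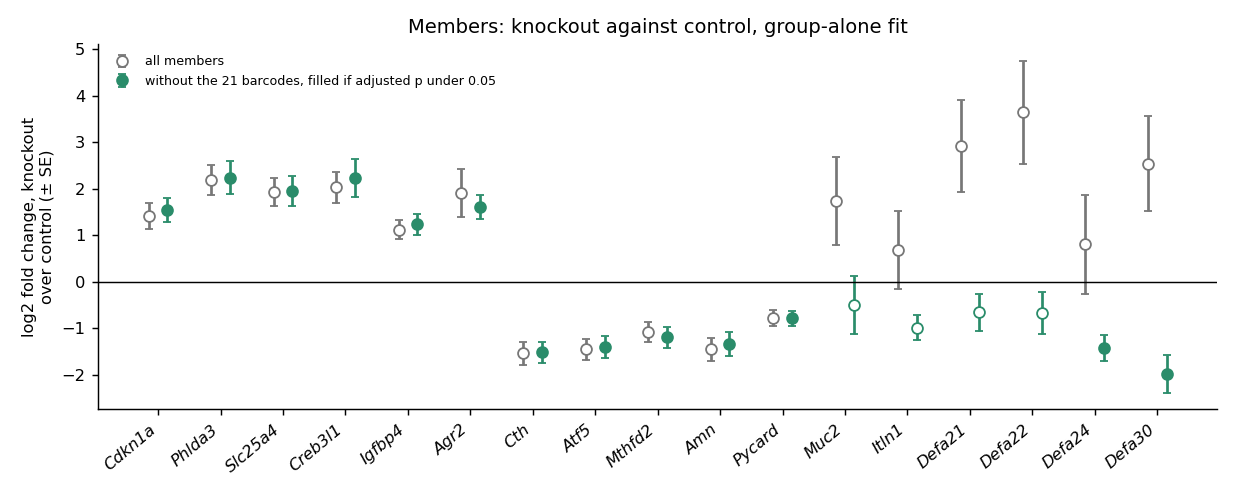
Log2 fold changes of knockout over control in members, with SE bars, from the fit with the group alone, with all members (grey) and without the 21 barcodes in which goblet, Paneth and enteroendocrine genes hold at least 5% of UMIs (green). Filled points have an adjusted p under 0.05. The 11 genes on the left keep their direction and become called, while Muc2, Itln1 and the Defa genes go from above to below 0.

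Without the 21 secretory-rich barcodes the secretory genes did not move as one. Higher were Agr2 (1.61 ± 0.26, adjusted p = 0.00758), the goblet and Paneth fate factor Spdef (adjusted p = 0.0173), the Paneth protease Mmp7 (1.58 ± 0.32, adjusted p = 0.0242) and Cck (adjusted p = 0.0212). For Cck the fold was 5.32 ± 1.06, beside 5.15 ± 1.25 over all members, where most molecules lay in the barcode of knockout 2 named above. Defa24 was at -1.42 ± 0.28 (adjusted p = 0.0208) and Defa30 at -1.97 ± 0.41 (adjusted p = 0.0270), both below 0, while Reg4 was at 2.32 ± 0.63 (adjusted p = 0.162) and Spink4 at 0.32 ± 0.28, neither called. Spdef and Mmp7 are named after their values were seen. In all, 2 of 9 tested goblet genes were higher, of 9 Paneth genes 1 was higher and 2 were lower, and of 3 enteroendocrine genes 1 was higher. The barcodes were set apart by their own secretory RNA, so these values of secretory genes are a description.

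In the dividing counterparts, which come from the same 4 libraries and share no barcode with the members, 21 of 8790 genes (0.239%) passed with the group as the only term, 15 higher (0.171%) and 6 lower (0.0683%). Cdkn1a was at 1.40 ± 0.19 (adjusted p = 0.0169), Phlda3 at 3.17 ± 0.30 (adjusted p = 0.0018), Slc25a4 at 1.79 ± 0.30 (adjusted p = 0.0483), Creb3l1 at 2.51 ± 0.26 (adjusted p = 0.00222), Igfbp4 at 1.05 ± 0.17 (adjusted p = 0.0354), Cth at -1.41 ± 0.22 (adjusted p = 0.0334) and Atf5 at -1.35 ± 0.20 (adjusted p = 0.0216) there. Mthfd2 was at -0.41 there, with an adjusted p of 0.694. The difference in knockout effect between members and dividing cells was tested as an interaction term, blocked by library. Of 9008 genes 6 passed (0.0666%), 3 higher (0.0333%) and 3 lower (0.0333%), and Cdkn1a, Phlda3, Slc25a4, Creb3l1, Igfbp4, Cth and Atf5 were not among them. Olfm4 was, with 1995, 196, 2508 and 926 CPM in the dividing cells and an interaction of 1.09 ± 0.15 (adjusted p = 5.01e-06). It passed without each library in turn, at 0.73 to 1.29, but not after thinning to 8000 UMIs (0.47). The other 5 genes are given in the closing section.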

How the data were processed

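Libraries were made with a droplet 3′ kit from 4 organoid cultures, and the deposited UMI counts per gene and barcode came from Cell Ranger 3.0.1 with the mm10 build, per the submitters' processing notes. The counts are not normalized. Strand setting and multi-mapped read handling are not given in the sources used here. Members and gene lists were chosen with earlier results of these data known.

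From the counts, barcodes with at least 500 genes were classed by the rule, UMIs were summed per class and library (classes of at least 10 cells), and genes were tested with edgeR 4.0.16 in R 4.3.3 (TMM scaling, filterByExpr, quasi-likelihood test, Benjamini-Hochberg adjusted p under 0.05). Knockout was compared with control by the group alone. Classes and the interaction were fitted with the library as a block. The labels do not say what the replicate numbers mark, so a replicate block is an alternative only. Scanpy 1.11.5 scored doublets, none of which were removed in the reported fits.

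Named genes were up to 12 a direction by fold change among called genes (for knockout against control, with 0 called, the calls with the block) with a mean log2 CPM of at least 5 and 1 sign in every library or pair, up to 4 called genes a direction from each list, and 15 genes always followed. Alternatives were DESeq2 1.42.0, other scaling, no filter, other limits, thinning to 8000 UMIs, doublet removal and leaving out each library. For fits and class shares the rule was applied again after thinning, while molecules per cell were counted in the original classes. Added after seeing the data were barcodes of at least 5000 UMIs, the removal of secretory-rich barcodes and their combinations with the block. Intervals cover counting error only.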

Additional observations from a re-analysis of the deposited data

Results flagged for a closer look

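The knockout effect differed between members and dividing counterparts for 6 genes (edgeR's quasi-likelihood test of the interaction, adjusted p under 0.05, log2 scale, members minus dividing cells). For Olfm4 the difference was 1.09 ± 0.15 (SE), with all 4 libraries contributing cells. Of 99 molecules of the control 2 members, 65 lay in 1 barcode. The difference did not pass after thinning to 8000 UMIs with the classes drawn again. Defa22 differed by 2.28 ± 0.40 (adjusted p = 0.00149), with 573 of its 1105 member molecules in 1 barcode of knockout 2. Gcg differed by 5.10 ± 1.08 (adjusted p = 0.0295), with 504 of 522 molecules in 1 barcode of the same library. Ang4 differed by -2.71 ± 0.26 (adjusted p = 1.76e-10), with 641 of 643 molecules of the control 2 members in 1 barcode, and Lyz1 by -2.61 ± 0.53 (adjusted p = 0.0161), with 1704 of 1812 molecules there in 1 barcode. Lgals3 differed by -1.16 ± 0.23 (adjusted p = 0.0161).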

How the results depend on the processing

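The share of members was higher in knockouts under every alternative run, by 0.912 to 3.50 percentage points, and by 1.96 to 3.01 with each library left out in turn. Calls of knockout against control in members depended on the fit: 0 with the group alone, 2 higher and 3 lower with DESeq2, 84 and 37 with no filter, 18 and 12 without the secretory-rich barcodes, 3 to 21 higher and 0 to 19 lower without 1 library. Same-numbered libraries deviated together in members (correlation 0.314 over 7429 genes) and over all kept barcodes (0.656 over 13272 genes). With 2 pairs this is a hint from the data and not the design. With the replicate block the calls were 30 higher and 10 lower, among them Olfm4 at 2.17 and Cdkn1a at 1.43. With DESeq2 and the block they were 6 and 3, and with the block and Lgr5 at 0 UMIs 43 and 26, barcodes of at least 5000 UMIs 41 and 23, thinning 11 and 4, or no secretory-rich barcodes 27 and 20. Against dividing cells, DESeq2 called 40 higher and 138 lower, thinning 189 lower, and leaving out a library 35 to 218 higher and 195 to 294 lower. Against Lgr5-positive cells, DESeq2 called 5 higher and 1 lower, barcodes of at least 5000 UMIs 5 and 0, no filter 70 and 37, no high doublet scores 16 higher, no secretory-rich barcodes 5 lower, and leaving out a library 11 to 42 higher and 1 to 13 lower. Interaction calls were 1 and 1 with barcodes of at least 5000 UMIs, 0 and 0 after thinning, 8 and 5 without secretory-rich barcodes, and 2 to 9 higher and 1 to 12 lower without 1 library. Against MCM-low cells no count moved by over 1.5 times. The 5000 UMI limit also uses fewer cells. Thinning drew the classes again at the lower depth, with 265 members, 725 dividing and 71 Lgr5-positive cells. Unthinned, these classes held 277, 446 and 214 cells. Otherwise the cause was not tested.

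Single genes that changed direction between knockout and control were mostly secretory. With an MCM limit of 800 CPM, Defa24 was at -0.10, Defa30 at -0.035 and Itln1 at -0.12. Without secretory-rich barcodes, Defa21 was at -0.65, Defa22 at -0.67, Defa24 at -1.42, Defa30 at -1.97, Muc2 at -0.49 and Itln1 at -0.98, and with the block added at -0.66, -0.65, -1.28, -1.81, -0.45 and -0.88. Without knockout 2, Defa21 was at -0.43, Defa22 at -0.14, Defa24 at -1.78, Defa30 at -1.18, Muc2 at -0.83, Spink4 at -0.92, Itln1 at -1.16, Mmp7 at -0.80 and Ccl9 at -0.87. Without control 1, Defa24 was at -0.14, Mmp7 at -0.16 and Itln1 at -0.18. The highest values with a library left out were 3.83 for Defa21, 5.04 for Defa22, 4.28 for Defa24, 4.09 for Defa30, 3.44 for Ccl9, 5.55 for Muc2, 4.50 for Spink4, 4.60 for Mmp7 and 3.10 for Itln1. Lgals3 ranged from -2.73 to 0.10, the latter without control 2. After thinning, Mmp7 was at -0.079 and Ccl9 at -0.064, the latter with the block at -0.39. Gm26917 against Lgr5-positive cells was at -0.19 after thinning. In the interaction, Lgals3 was at 0.87 after thinning, Lyz1 at 1.08 without control 2 (lowest -4.50, without control 1) and Ang4 at 1.14 without secretory-rich barcodes.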
